A study of Arabidopsis thaliana with 5 samples.

Results

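The 31 genes described here belong to the abscisic acid (ABA) and dehydration response of Arabidopsis. They were chosen from a list of loci matched to the names printed for the array spots, and all 31 were found among the 26017 loci of the array. They comprise *NCED3*, which makes an enzyme of ABA synthesis, 6 clade A protein phosphatases 2C (PP2C), 5 transcription factors, the *RD29A* and *RD29B* pair, 8 late embryogenesis abundant (LEA) proteins and dehydrins, 4 cold-regulated genes, *RD22* and *TSPO*, and 3 enzymes of osmolyte synthesis.

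In a leaf that loses water, ABA accumulates and binds receptors of the PYR/PYL family, which then hold the PP2C phosphatases inactive. SnRK2 kinases are thereby released and activate bZIP factors that bind the ABA-responsive element of target promoters, while DREB factors bind the dehydration-responsive element. The targets include LEA proteins and dehydrins, small hydrophilic proteins that are thought to protect membranes and enzymes, and enzymes that make proline and raffinose-type sugars. *RD29A* carries both elements in its promoter and is a widely used reporter of drought, cold and ABA.

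Rosette leaves of 5-week-old Col-0 plants were compared on 5 spotted arrays with 2 channels each, with wild-type (WT) RNA labelled Cy3 and RNA of an overexpressor (OE) in the same growth state labelled Cy5. Plants overexpressing grain amaranth *AhERF-VII*, an ethylene response factor, were sampled in optimal growth (Op), after 5 days of no irrigation (water stress, WS) and 24 h after rewatering (recovery, R). Plants overexpressing *AhDof-AI*, a Dof-domain factor, were sampled in Op and after 3 days with 40 mL of 400 mM NaCl (salt stress, SS), and WT plants received the same treatments. Each factor was represented by 1 homozygous line and each state by 1 array, with no exchange of dyes. For the promoter that drove the transgenes of these lines, no information was given in the sources used here.

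The value of a gene is the value of the spots that carry its name, and these names need a caution. Of the 31 genes, 26 had 1 spot and 5 had 2 or 3. Both spots of *ABF3* carry the same transcript identifier, yet their WT levels, averaged over the 5 arrays on the log2 scale, were 7.97 and 13.17. The 3 spots of *COR15A* lay at 8.08, 14.22 and 7.54, and the spots of *RD26* at 13.75 and 8.04. Over 1526 transcript identifiers with repeated spots, the WT levels of the first 2 spots had a correlation of 0.07 (Pearson, a description across spots) and a median difference of 2.1, with a standard deviation (SD) of 2.42 over all gene spots. Leaf photosynthesis genes, among the most abundant messengers of a leaf, were not among the brightest spots either: the 12 fixed markers had a median WT level in Op at percentile 59.8 of all loci (range 21.6 to 83.0), 8 seed markers at 42.2, 7 root markers at 53.3 and 4 guard cell markers at 40.5. Whether each spot measures the gene it is named for was not tested.

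**Figure D1:**
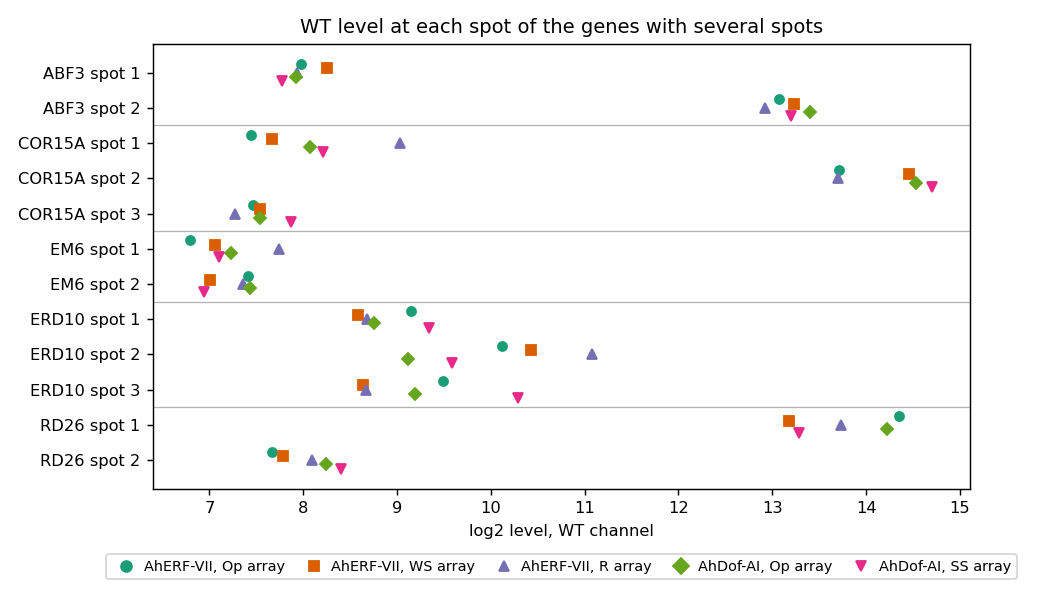
WT level (log2, x axis) at each spot of the 5 genes that have several spots, with 1 symbol per array. The dimmest and brightest spots of *ABF3*, *COR15A* and *RD26* lie several log2 units apart on every array, while the 2 *EM6* spots lie close together near 7.

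Depth is given here by the share of loci brighter than the 95th percentile of the 510 empty spots, called above background. It ran from 78.5% to 90.9% in the WT channels and from 62.9% to 76.3% in the OE channels. Of the 31 genes, 27 were above background in WT on all 5 arrays. Between 23 and 26 were above it in both channels of an array. In *EM6*, *HAI3*, *KIN1* and *GOLS2* the OE channel was above background on none of the 5 arrays.

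The first question was whether the response genes differed between OE and WT plants in each state. Their ratios lay on both sides of 0: the median log2 ratio of OE to WT over the 31 genes was -0.07 in Op, -0.03 under WS and 0.10 in R for OE-*AhERF-VII*, and 0.02 in Op and -0.00 under SS for OE-*AhDof-AI*. The medians of all loci were between -0.00 and 0.00. With each array centred on its median in place of loess, the medians of the 31 genes were 0.17, -0.05 and 0.14 in Op, WS and R, and 0.21 in both Op and SS. On each array 13 to 18 of the 31 genes had a ratio above 0. A few genes stood apart, led by *RD29A* (higher) and the dehydrin gene *COR47* (lower).

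To set each ratio against spots of like brightness, it was expressed as a Z score, in SDs from the mean of the 100 loci nearest in brightness. A ratio was called where that score reached 2 or -2. A single array gives no replicate error, so a call is a description and not a test. In OE-*AhERF-VII* in Op, 2 genes were called higher (*RD29A* and *HB12*) and 2 lower (*COR47* and *P5CS1*), where 1.64% of all loci were called higher and 2.98% lower. Under WS, *LTI30* was called higher and *DREB2A* and *COR47* lower, with 1.74% and 2.71% of all loci. In R none was called in either direction, against 2.13% and 2.46% of all loci. In OE-*AhDof-AI* in Op, *RD29A* was called higher and *COR47* lower, with 1.32% and 3.36% of loci, and under SS *RD29A* alone was called higher and none lower, with 1.2% and 3.18%. Just short of a call lay *RD29A* and *P5CS1* under WS (Z scores of 1.92 and -1.91) and *DREB2A* in R (-1.89).

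**Figure D2:**
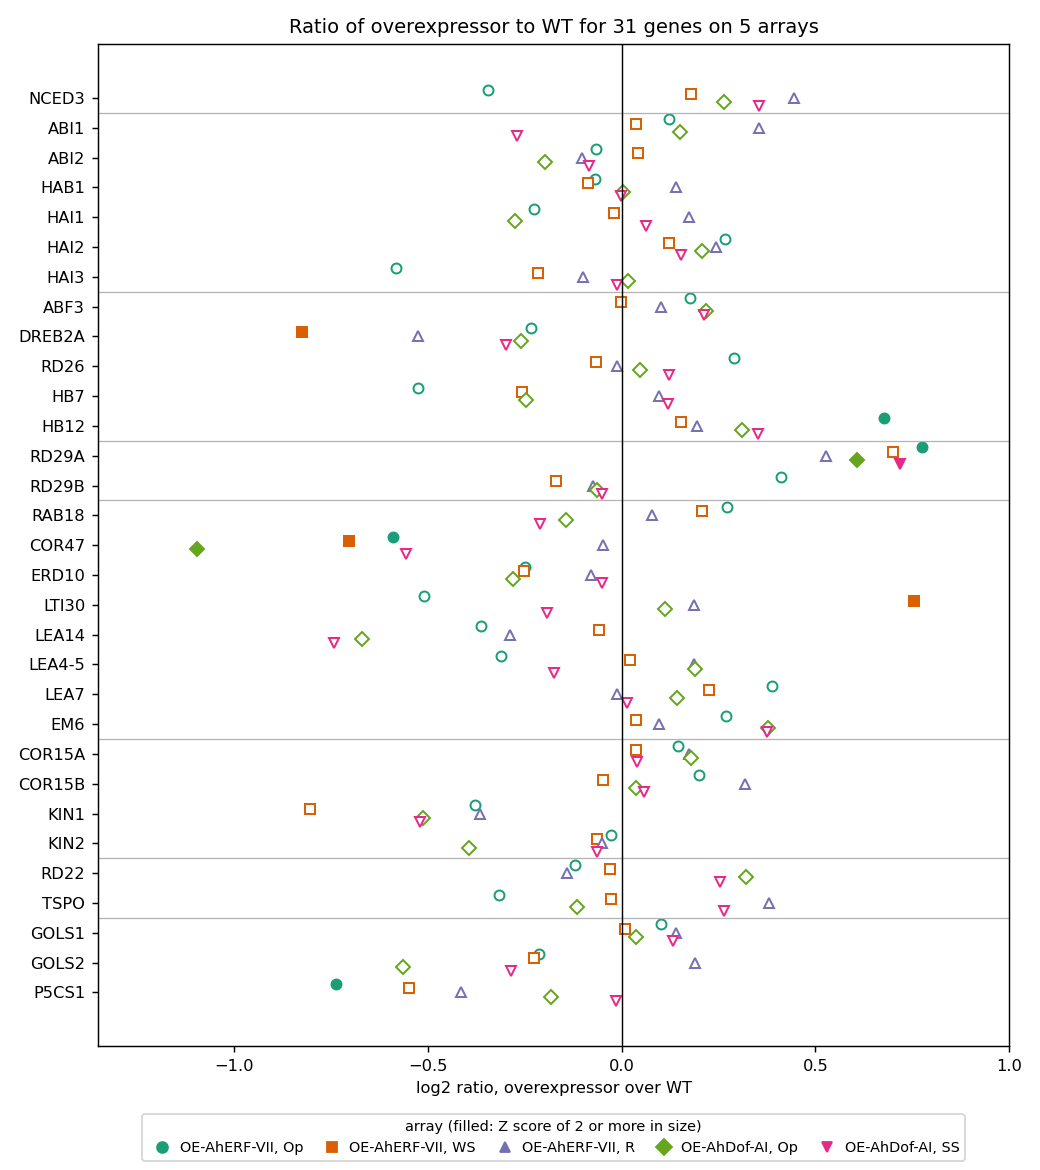
Log2 ratio of the overexpressor to WT (x axis) for each of the 31 genes (y axis, grouped by role) on the 5 arrays. Filled symbols are called ratios. *RD29A* lies between 0.53 and 0.77 on all 5 arrays, while *COR47* reaches -1.10 in OE-*AhDof-AI* in Op.

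The second question was whether the mean ratio of a gene over the states of a line differed from 0. The log2 ratios were averaged over the 3 states of OE-*AhERF-VII* and the 2 states of OE-*AhDof-AI* and tested with limma on all 5 arrays (3 residual degrees of freedom), with Benjamini-Hochberg adjustment over 26017 loci. The states stand in for replicates. Because the OE RNA always carried Cy5, the genotype and any bias of single spots toward 1 dye cannot be told apart. In OE-*AhERF-VII*, *RD29A* and *HB12* rose and *P5CS1*, *KIN1*, *DREB2A* and *COR47* fell, 6 of 31 genes or 19.4%, where 20.9% of all loci passed. In OE-*AhDof-AI*, *RD29A* and *EM6* rose and *LEA14*, *COR47* and *KIN1* fell, 5 of 31 or 16.1%, where 14.9% of all loci passed. The share that passed among the response genes was thus close to that of all loci, in which 9.71% rose and 11.2% fell in OE-*AhERF-VII*, and 5.68% rose and 9.24% fell in OE-*AhDof-AI*. These counts depend on single arrays. Without the WS array, 1 of the 31 genes and 2.25% of all loci passed in OE-*AhERF-VII*, and without the R array or either *AhDof-AI* array 5 genes and 13.5% to 13.9% of loci. In OE-*AhDof-AI*, 0 genes and 1.48% of loci passed without its Op array, 1 gene and 1.46% without its SS array, and 9 genes and 26.1% without the Op array of OE-*AhERF-VII*. With median centring, 21 and 18 of the 31 genes passed, and 59% and 53.2% of all loci, and in OE-*AhDof-AI* 6985 loci rose and 6849 fell in place of 1477 and 2403.

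**Figure D3:**
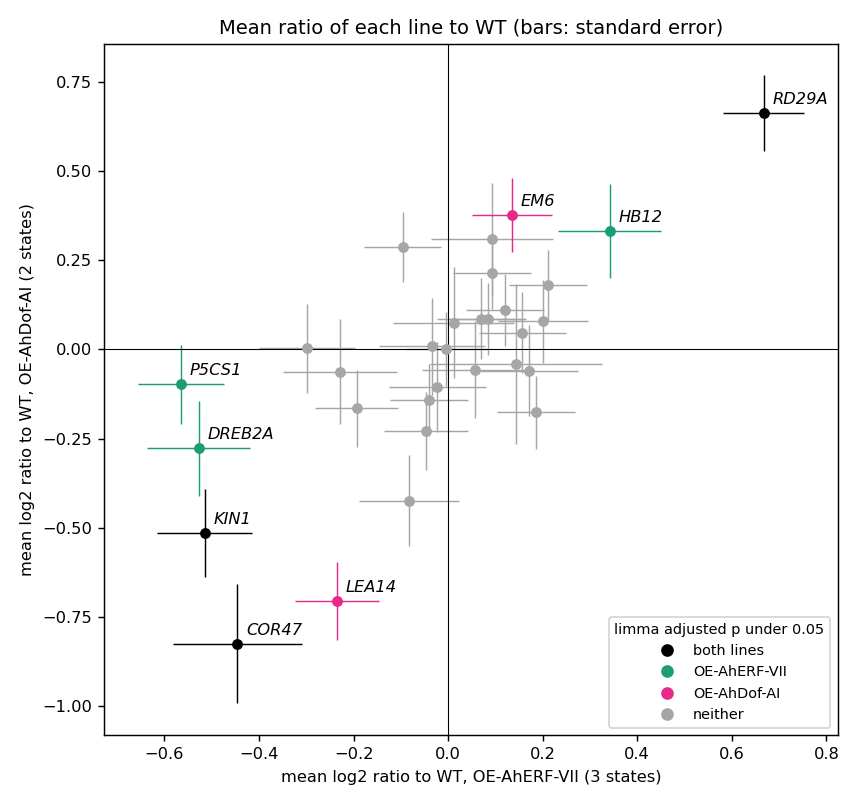
Mean log2 ratio to WT of each gene in OE-*AhERF-VII* (x axis, 3 states) against OE-*AhDof-AI* (y axis, 2 states), with bars of 1 standard error from limma. Named genes passed the test in at least 1 line; *RD29A* lies at 0.67 and 0.66, and *KIN1* at -0.52 in both lines.

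*RD29A* (AT5G52310) encodes a hydrophilic dehydration protein. Its WT level was 14.60 in Op, 14.82 under WS and 15.29 in R on the *AhERF-VII* arrays, and 14.63 in Op and 14.64 under SS on the *AhDof-AI* arrays. In the OE channel it was 15.38, 15.52 and 15.81, and 15.24 and 15.36. The OE channel was the brighter one on all 5 arrays, while the WT and OE ranges overlapped because the WT level in R was above the OE level in Op of OE-*AhDof-AI*. The log2 ratios were 0.77 in Op, 0.70 under WS and 0.53 in R for OE-*AhERF-VII*, and 0.61 in Op and 0.72 under SS for OE-*AhDof-AI*. Its mean log2 ratio was 0.67 ± 0.09 (standard error) in OE-*AhERF-VII* (limma adjusted p = 0.00244) and 0.66 ± 0.11 in OE-*AhDof-AI* (limma adjusted p = 0.00378), about 1.59-fold and 1.58-fold. In OE-*AhERF-VII* the adjusted p kept its side of 0.05 under all alternatives run. In OE-*AhDof-AI* it became 0.0714 without the Op array and 0.147 without the SS array, each of which leaves that line with 1 array. The size of the ratio depends on the normalization: with each array centred on its median in place of loess, the means were 1.71 and 1.52 on the log2 scale. The loci nearest to *RD29A* in brightness had mean ratios above 0 on every array. The means were 0.05 in Op, 0.14 under WS and 0.24 in R for OE-*AhERF-VII*, and 0.02 in Op and 0.05 under SS for OE-*AhDof-AI*. In R, *RD29A* was at percentile 99.96 of brightness, so most of those loci were dimmer. Set against them, *RD29A* in R had a Z score of 1.28.

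*RD29B* (AT5G52300), the neighbouring gene, which depends more strongly on ABA than *RD29A*, gave another picture. Its WT levels were 9.69, 10.29 and 10.52 in Op, WS and R, and 10.85 and 10.74 in Op and SS. Its log2 ratio was 0.41 in OE-*AhERF-VII* in Op and between -0.17 and -0.05 on the other 4 arrays. The line means were 0.06 ± 0.11 and -0.06 ± 0.14, and neither passed the limma test (adjusted p = 0.749 and 0.809). The WT levels of *RD29B* in Op differed by 1.15 between both Op arrays, and its WS level lay between them.

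*COR47* (AT1G20440) encodes an acidic dehydrin induced by cold, drought and ABA. Its WT level was 9.83, 10.05 and 11.18 in Op, WS and R on the *AhERF-VII* arrays, and 9.42 and 9.67 in Op and SS on the *AhDof-AI* arrays. In the OE channel it was 9.24, 9.34 and 11.14, and 8.33 and 9.12. OE was the dimmer channel on all 5 arrays, although in R the channels were nearly equal (log2 ratio of -0.05). The ratios on the other arrays were -0.59 in Op and -0.70 under WS in OE-*AhERF-VII*, and -1.10 in Op and -0.55 under SS in OE-*AhDof-AI*. The value in Op of OE-*AhDof-AI* had a Z score of -4.20, larger in size than that of any other of the 31 genes on any array. Its mean log2 ratio fell by 0.45 ± 0.14 in OE-*AhERF-VII* (limma adjusted p = 0.0427) and by 0.82 ± 0.17 in OE-*AhDof-AI* (limma adjusted p = 0.0113). Over the alternatives run, the call in OE-*AhERF-VII* was kept under 5 and lost under 6. In OE-*AhDof-AI* it was kept under 8 and lost under 3. Print-tip loess left -0.22 and -0.39 (adjusted p = 0.252 and 0.141), and the call was lost without the Op or WS array of OE-*AhERF-VII* (-0.37 and -0.32, adjusted p = 0.116 and 0.267) and without the Op array of OE-*AhDof-AI* (-0.55, adjusted p = 0.263).

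*ERD10* (AT1G20450), the dehydrin gene next to *COR47*, had log2 ratios below 0 on all 5 arrays, between -0.28 and -0.05, none of which was called. Its line means were -0.19 ± 0.09 and -0.17 ± 0.11 (limma adjusted p = 0.139 and 0.320). *LTI30* (AT3G50970), another dehydrin, varied most over the states of OE-*AhERF-VII*, with an SD of 0.63 over 3 log2 ratios. In WT it was at 10.47, 9.90 and 10.66 in Op, WS and R, and in OE at 9.96, 10.65 and 10.85. The ratio was -0.51 in Op, 0.75 under WS (Z score of 2.82) and 0.19 in R, and 0.11 and -0.19 in OE-*AhDof-AI*. Under WS, *LTI30* was thus the brighter in OE plants, and in Op the dimmer. Its line means were 0.14 ± 0.18 and -0.04 ± 0.22, which did not pass (adjusted p = 0.599 and 0.920).

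*LEA14* (AT1G01470), which encodes an atypical LEA protein, was dimmer in OE plants on all 5 arrays. The WT levels were 8.61, 8.82 and 8.91 in Op, WS and R, and 8.17 and 8.41 in Op and SS. Its OE level was 8.25, 8.76 and 8.63, and 7.50 and 7.67, and on both *AhDof-AI* arrays the OE channel was not above background. In OE-*AhDof-AI* it was 1.63-fold lower (mean log2 ratio of -0.71 ± 0.11, limma adjusted p = 0.00328). With the OE channel not above background, that fold is an estimate and not a lower limit. Without the Op array the adjusted p was 0.0695 and without the SS array 0.115, and median centring gave a mean of -1.22. In OE-*AhERF-VII* the mean was -0.24 ± 0.09 (adjusted p = 0.0835).

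The other genes of this group lay closer to WT. *RAB18* (AT5G66400), a dehydrin gene strongly responsive to ABA, had log2 ratios of 0.27, 0.21 and 0.08 in OE-*AhERF-VII* and of -0.14 and -0.21 in OE-*AhDof-AI*. *LEA4-5* and *LEA7* had ratios between -0.31 and 0.39, and none was called. *EM6*, a group 1 LEA gene of seeds, was above background in neither channel on 4 arrays and in WT alone in R. Its rise in OE-*AhDof-AI* (mean log2 ratio of 0.38 ± 0.10, limma adjusted p = 0.0360) therefore rested on 2 arrays without signal above background in either channel, so no fold is given. It turned to -0.28 with median centring and to 0.07 with print-tip loess, and was 0.65 with plain background subtraction. Over the alternatives run, this rise kept its call under 4, lost it under 5 and turned sign under 1. The 2 spots of *EM6* gave log2 ratios of 0.63 and 0.12 in Op of OE-*AhDof-AI*, and of 0.47 and 0.28 under SS.

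Among the transcription factors, *DREB2A* (AT5G05410), whose product binds the dehydration-responsive element, was dimmer in OE plants on all 5 arrays. WT levels of 14.23, 14.80 and 14.10 in Op, WS and R, and of 14.57 and 13.88 in Op and SS stood beside OE levels of 14.00, 13.98 and 13.57, and 14.31 and 13.58. In WT the level under WS was above that in both Op arrays, while in OE-*AhERF-VII* the levels in WS and Op were nearly equal. The log2 ratio was -0.23 in Op, -0.82 under WS (Z score of -3.17) and -0.53 in R. Its mean in OE-*AhERF-VII* fell by 0.53 ± 0.11 (limma adjusted p = 0.00974), whereas the mean of -0.28 ± 0.13 in OE-*AhDof-AI* did not pass (adjusted p = 0.181). With median centring the sign of the mean turned (0.22) and the ratio under WS was -0.09, print-tip loess left -0.29 (adjusted p = 0.0536), and without the WS array the mean was -0.38 (adjusted p = 0.0831).

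*HB12* (AT3G61890), a homeodomain-leucine zipper factor induced by ABA, was brighter in OE plants on all 5 arrays. WT plants had 13.77, 14.46 and 14.94 in Op, WS and R, and 14.51 and 14.67 in Op and SS. OE plants had 14.45, 14.62 and 15.13, and 14.83 and 15.02. The largest ratio, 0.68 in Op of OE-*AhERF-VII* (Z score of 2.56), went with the lowest of the 5 WT levels. The mean log2 ratio in OE-*AhERF-VII* was 0.34 ± 0.11 (limma adjusted p = 0.0476). That call was lost without any 1 of the 5 arrays, with adjusted p between 0.0686 and 0.162, and the mean was 0.17 without the Op array and 1.19 with median centring. In OE-*AhDof-AI* the mean was 0.33 ± 0.13 (adjusted p = 0.116).

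*HB7*, a close relative of *HB12*, had log2 ratios from -0.53 to 0.12 and was above background in both channels under SS alone. *ABF3*, a bZIP factor that binds the ABA-responsive element, had ratios from -0.00 to 0.22, with 0.27 to 0.43 at its brighter spot and -0.34 to 0.17 at the dimmer one. *RD26*, a NAC factor, had ratios from -0.07 to 0.29, although its spots differed, with ratios from -0.41 to 0.00 at the brighter one and from 0.21 to 0.70 at the dimmer one. None of these 3 genes was called or passed the limma test in either line. For *ABF3* and *RD26* that concerns the average over spots of unlike brightness, and no spot was scored or tested alone.

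In osmolyte synthesis, *P5CS1* (AT2G39800), the rate-limiting enzyme of proline synthesis from glutamate, was dimmer in OE-*AhERF-VII*. In WT its level was 11.82, 11.74 and 11.07 in Op, WS and R, and 11.89 and 11.83 in Op and SS. In OE it was 11.09, 11.19 and 10.65, and 11.71 and 11.81. The log2 ratios of OE-*AhERF-VII* were -0.73, -0.55 and -0.41, and those of OE-*AhDof-AI* were -0.18 and -0.01. Its mean in OE-*AhERF-VII* fell by 0.57 ± 0.09, or 1.48-fold (limma adjusted p = 0.00459), while the mean of -0.10 ± 0.11 in OE-*AhDof-AI* did not pass (adjusted p = 0.583). Without the WS array the mean stayed at -0.57 with an adjusted p of 0.0505, and with median centring it was -0.31. *GOLS1* and *GOLS2* encode galactinol synthases, which supply galactinol for raffinose. *GOLS1* had ratios between 0.01 and 0.14. *GOLS2* had ratios from -0.56 to 0.19, its OE channel was never above background, and its mean of -0.42 ± 0.13 in OE-*AhDof-AI* missed the threshold (adjusted p = 0.0506).

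*NCED3* (AT3G14440), the rate-limiting step of ABA synthesis in drying leaves, had log2 ratios of -0.35, 0.18 and 0.45 in OE-*AhERF-VII* and of 0.26 and 0.35 in OE-*AhDof-AI*, none of them called. Its line means were 0.09 ± 0.13 and 0.31 ± 0.16 (limma adjusted p = 0.634 and 0.207). Of the 6 PP2C genes, the negative regulators of ABA signalling, none was called on any array and none passed the test in either line. *ABI1* (AT4G26080) ranged from -0.27 to 0.35, *ABI2* from -0.20 to 0.04, *HAB1* from -0.09 to 0.14, and *HAI1* from -0.28 to 0.18. *HAI2* (AT1G07430) was above 0 on all 5 arrays, between 0.12 and 0.27, with line means of 0.21 ± 0.08 and 0.18 ± 0.10 (adjusted p = 0.0893 and 0.243). *HAI3* had its lowest ratio, -0.58, in Op of OE-*AhERF-VII*, where neither channel was above background.

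Of the cold-regulated genes, *KIN1* (AT5G15960) stood apart from its neighbour *KIN2*. Both encode small hydrophilic proteins that are nearly the same in sequence. *KIN1* had WT levels of 8.41, 7.95 and 7.82 in Op, WS and R, and of 8.13 and 8.11 in Op and SS, all above background, and its OE levels of 8.03, 7.15, 7.46, 7.62 and 7.59 were all not. Its mean log2 ratio was -0.52 ± 0.10 in OE-*AhERF-VII* (limma adjusted p = 0.00833), or 1.43-fold lower. In OE-*AhDof-AI* it was -0.52 ± 0.12 (limma adjusted p = 0.0219), also 1.43-fold lower. With no OE level above background, these folds are estimates and not lower limits. Setting the OE level no lower than that of the dimmest locus above background gave 1.34-fold in OE-*AhERF-VII* and left 1.43-fold in OE-*AhDof-AI*. In OE-*AhDof-AI* the sign turned with print-tip loess (0.18) and in the authors' net intensities (0.29), and the adjusted p was 0.238 and 0.287 without its Op and SS array. In OE-*AhERF-VII* print-tip loess left -0.20 (adjusted p = 0.160), and without the WS array the mean was -0.37 (adjusted p = 0.0667). Median centring gave means of -0.96 and -1.06 in these lines, and plain background subtraction -0.81 in OE-*AhERF-VII*. *KIN2* (AT5G15970) lay between -0.06 and -0.03 on 4 arrays and at -0.39 in Op of OE-*AhDof-AI*. *COR15A* and *COR15B*, neighbouring genes for chloroplast proteins, had ratios between -0.05 and 0.32, and neither passed the test. For *COR15A* that concerns the average over 3 spots of unlike brightness, none of which was tested alone. Its ratios ran from -0.20 to 0.14 at the brightest spot, and from -0.11 to 0.23 and from 0.24 to 0.40 at the others. *RD22* and *TSPO* had ratios between -0.32 and 0.38 and did not pass either.

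Whether OE-*AhERF-VII* and OE-*AhDof-AI* differed from each other was tested in the same limma fit. No gene of the 31 and no locus of 26017 had an adjusted p under 0.05, while at an unadjusted p under 0.05 there were 4 of the 31 genes and 3121 loci, or 12%. A ratio past the threshold in 1 line only, as in *P5CS1*, *DREB2A*, *HB12*, *LEA14* and *EM6*, is thus not shown to differ between the lines.

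The third question was how the response genes differed between growth states within a genotype. In WT plants the median log2 difference of the 31 genes was 0.10 from Op to WS, 0.10 from WS to R and 0.04 from Op to SS, where the medians of all loci were 0.01, -0.04 and 0.02. With each channel centred on its median, in place of loess and scaling by brightness, the medians of the 31 genes were 0.41 from Op to WS and 0.38 from Op to SS. The WT Op state is the only one measured on 2 arrays, and between these the median difference of the 31 genes was 0.13, no smaller than between states. The SD over all loci was 0.67 between both Op arrays, 0.82 from WS to R, 0.54 from Op to WS and 0.50 from Op to SS, where differences from Op use the mean of both Op arrays and the former 2 are between single arrays. The column headers give the WT plants of both lines' arrays different codes, and whether the WT RNA was the same was not given in the sources used here.

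Against the 2 WT Op levels, 13 of the 31 genes lay above both under WS and 7 below both, where 34.3% and 31.9% of all loci did. Those above were *NCED3*, *HAB1*, *HAI2*, *HAI3*, *ABF3*, *DREB2A*, *RD29A*, *RAB18*, *COR47*, *LEA14*, *LEA4-5*, *COR15B* and *RD22*. *NCED3* was nearly level with 1 of the Op arrays, at 12.49 under WS and 12.48 in Op of the *AhERF-VII* arrays. Those below were *HAI1*, *RD26*, *LTI30*, *EM6*, *KIN1*, *TSPO* and *P5CS1*. Under SS 11 lay above both and 9 below both, with 33.4% and 30.9% of all loci, and in R 12 and 13, with 36.4% and 39.3%. In limma on the WT channels, where the spread comes from the Op pair alone (1 residual degree of freedom) and the lone WS, R and SS arrays are assumed to vary like it, none of the 31 genes had an adjusted p under 0.05 in any of the 3 comparisons. Over all loci 1, 3 and 1 did (WS against Op, R against WS, SS against Op), which is 0.00384%, 0.0115% and 0.00384%. At an unadjusted p under 0.05 there were 1, 1 and 0 of the 31 genes, and 4.03%, 10.6% and 2.05% of all loci.

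*RD22* (AT5G25610), which encodes a BURP domain protein induced by drought and ABA, was the 1 gene called in WS against Op in WT, where 1.67% of all loci were called higher and 2.67% lower. Its WT levels were 8.22 and 8.43 in Op, 9.45 under WS, 8.62 in R and 8.50 under SS. The WS level was thus the highest of the 5, and 1.13 ± 0.42 above the mean of both Op levels (2.18-fold, Z score of 2.02, unadjusted p = 0.0353, adjusted p = 1.00 in limma). In OE-*AhERF-VII* its levels were 8.10 in Op, 9.42 under WS and 8.48 in R. The difference from Op to WS was 1.32, or 2.5-fold (Z score of 2.4, with 1.87% of loci called higher). The OE channel was not above background in Op, so that fold is an estimate and not a lower limit. In OE-*AhDof-AI* the *RD22* level was 8.76 in Op and 8.76 under SS. The 2 channels of an array share its spots, so the WT and OE differences are not independent. In WT the Z score was 1.65 without the Op array of *AhERF-VII* and 1.89 without that of *AhDof-AI*.

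*NCED3* had the largest drop of the 31 genes from WS to R in WT. Its WT levels were 12.48 and 11.97 in Op, 12.49 under WS, 10.58 in R and 11.90 under SS. The log2 difference of R from WS was -1.91 ± 0.52 (3.75-fold, Z score of -1.79, unadjusted p = 0.00974, adjusted p = 0.401 in limma). In OE-*AhERF-VII* it was 12.14 in Op, 12.67 under WS and 11.03 in R, a difference of -1.64 from WS to R. Both genotypes were lowest in R, but neither value was called.

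*LEA7* was the 1 gene called in SS against Op in WT, where 1.88% of loci were called higher and 2.64% lower. Its WT levels were 14.05 and 15.03 in the 2 Op arrays and 15.21 under SS, and the difference of 0.67 (Z score of 2.15) was smaller than the 0.98 between both Op arrays, itself called, where 2.85% of loci were called higher and 2.05% lower. Against the Op array of *AhDof-AI* alone the difference was 0.18 (Z score of 0.80), against that of *AhERF-VII* alone 1.16, and with median centring of each channel 1.42. In OE-*AhDof-AI* its levels were 15.17 in Op and 15.23 under SS.

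*ERD10* was called in SS against Op in OE-*AhDof-AI*, where 2.13% of loci were called higher and 2.24% lower. Its OE levels were 8.78 in Op and 9.83 under SS, a difference of 1.04 (Z score of 2.92), and the 3 spots gave 0.66, 0.61 and 1.45. In WT it was 9.06 in Op and 9.88 under SS on the same arrays, and 9.56 in Op on the other one. Its neighbour *COR47* was 0.79 higher under SS than in Op in OE-*AhDof-AI* and was not called. *COR47* had the largest increase from WS to R, 1.14 in WT and 1.79 in OE-*AhERF-VII*, also not called at that brightness. In OE-*AhERF-VII* under WS against Op, *KIN1* was called lower (-0.88, with 2.78% of loci called lower), at levels that were not above background.

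**Figure D4:**
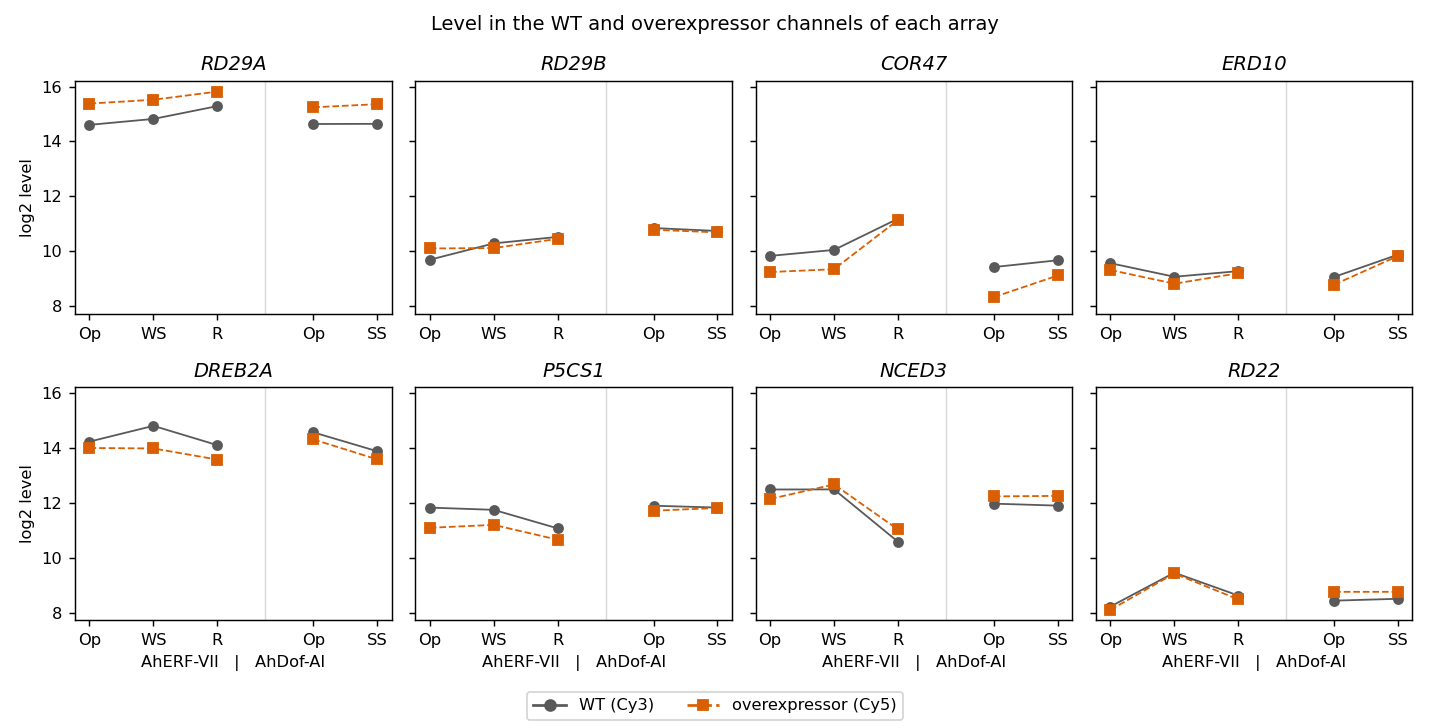
Level (log2, y axis) of 8 genes in the WT channel (circles) and the OE channel (squares) of each array, by growth state (x axis), with the *AhERF-VII* arrays on the left of each panel. *RD29A* is brighter in OE on every array, *NCED3* is lowest in R in both channels, and *RD22* is highest under WS in both channels of the *AhERF-VII* arrays.

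**Figure D5:**
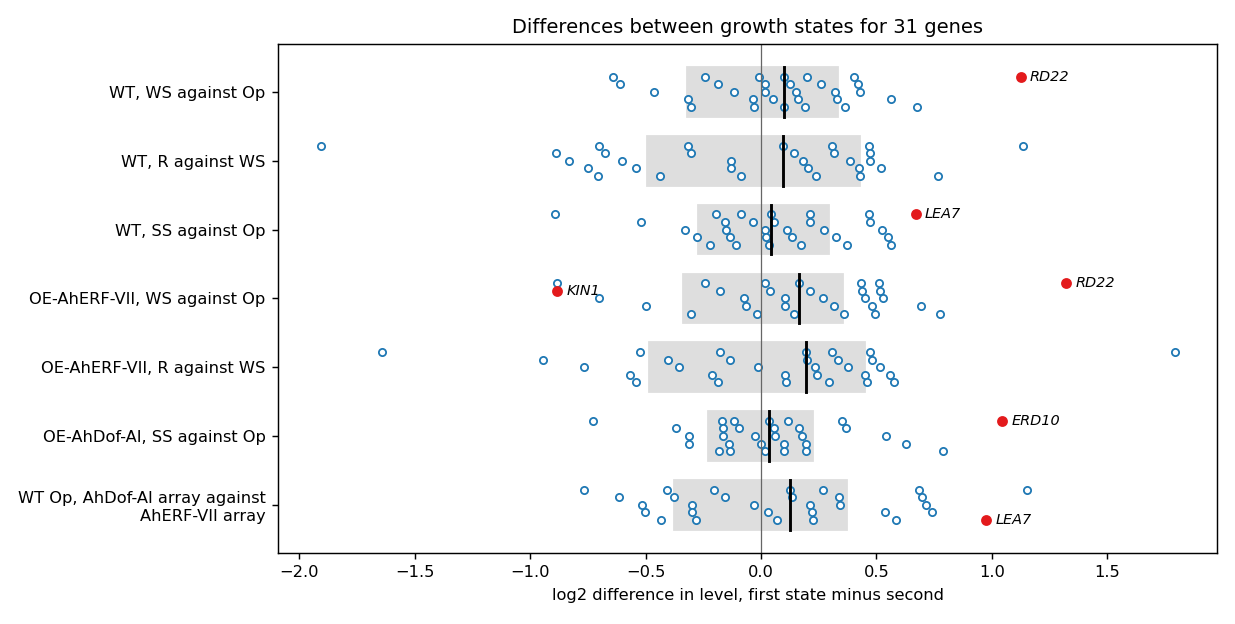
Log2 difference between growth states (x axis) for the 31 genes in each comparison (y axis), with the median of the 31 genes as a black line and the middle 50% of all loci as a grey box. Red points are called, the *KIN1* point among them at levels not above background. In the bottom comparison, WT in Op on both Op arrays, the points spread from -0.76 to 1.15.

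In OE plants the group medians were 0.17 from Op to WS and 0.19 from WS to R in OE-*AhERF-VII*, and 0.03 from Op to SS in OE-*AhDof-AI*, beside 0.02, -0.02 and -0.00 over all loci. No gene was called from WS to R in WT or in OE-*AhERF-VII*, where 2.68% of all loci were called higher and 1.63% lower in WT, and 2.39% and 1.87% in OE-*AhERF-VII*. Centring each channel on its median gave medians of 0.45 from Op to WS in OE-*AhERF-VII* and 0.55 from Op to SS in OE-*AhDof-AI*.

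Further genes of the ABA and dehydration pathway were taken from 6 lists with 78 loci, of which 77 were on the array. Their median log2 ratio was between -0.01 and 0.03 on every array. By Z score, 0 were called higher and 2 lower in Op of OE-*AhERF-VII*, 2 and 2 under WS, 6 and 2 in R, 1 and 4 in Op of OE-*AhDof-AI*, and 1 and 1 under SS. These are 2.6%, 5.19%, 10.4%, 6.49% and 2.6% of the 77 loci in either direction, beside 4.62%, 4.45%, 4.59%, 4.68% and 4.37% of all loci. In limma, 12 rose and 4 fell in OE-*AhERF-VII*, or 20.8%, where 20.9% of all loci passed, and 4 rose and 6 fell in OE-*AhDof-AI*, or 13%, where 14.9% of all loci passed. Among the 14 ABA receptor genes 2 rose and 1 fell in OE-*AhERF-VII* (21.4%), and 2 rose and 3 fell in OE-*AhDof-AI* (35.7%). Of the 10 SnRK2 kinase genes 2 rose in OE-*AhERF-VII* (20%) and 0 passed in OE-*AhDof-AI*. Of 16 other transcription factors 1 rose in OE-*AhERF-VII* and 1 fell in OE-*AhDof-AI* (6.25% each). Of 13 genes of ABA synthesis and breakdown 1 rose in OE-*AhERF-VII* (7.69%), and 1 rose and 1 fell in OE-*AhDof-AI* (15.4%). Of 18 other dehydration and cold genes 5 rose and 2 fell in OE-*AhERF-VII* (38.9%), and 1 rose and 1 fell in OE-*AhDof-AI* (11.1%). Of 6 other genes of osmolyte synthesis 1 rose and 1 fell in OE-*AhERF-VII* (33.3%) and 0 passed in OE-*AhDof-AI*.

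The named genes of these lists are the up to 3 with the largest Z scores per comparison. *RCI2A*, which encodes a small membrane protein induced by cold, had the lowest ratio in Op of OE-*AhERF-VII* (-1.16), with the OE channel not above background, and the receptor gene *PYL13* lay at -0.63. Under WS the receptor gene *PYL9* lay at -0.79, the galactinol synthase gene *GOLS4* at -0.76 with the OE channel not above background, and the kinase gene *SNRK2.1* at 0.60. In R, *COR413-PM1* lay at 0.61, *BGLU18*, which encodes a glucosidase that releases ABA from its glucose ester, at 0.64, and *SNRK2.1* at 0.54 with neither channel above background. In OE-*AhDof-AI*, *NAC019*, a NAC factor of the ABA response, lay at -0.75 in Op with the OE channel not above background, the kinase gene *SNRK2.4* at -0.72 in Op, *ABA3*, which activates the last enzyme of ABA synthesis, at -0.65 under SS, and *EM1*, a seed LEA gene related to *EM6*, at 0.56 in Op and 0.49 under SS. *EM1* rose in both lines, by 0.30 ± 0.09 in OE-*AhERF-VII* (limma adjusted p = 0.0396) and by 0.53 ± 0.11 in OE-*AhDof-AI* (adjusted p = 0.0135). Of all loci, 20.9% and 14.9% passed in these lines. The values of genes from the wider lists were not recomputed under the alternatives. Between states, 3.9%, 3.9% and 2.6% of the 77 loci were called in WT (WS against Op, R against WS, SS against Op). Of all loci, 4.34%, 4.31% and 4.53% were called there. In OE-*AhERF-VII* the shares were 5.19% in WS against Op and 2.6% in R against WS, beside 4.65% and 4.26% of all loci. In OE-*AhDof-AI* the share was 6.49% in SS against Op, beside 4.38% of all loci. *AAO3*, the aldehyde oxidase of the last step of ABA synthesis, was called lower under WS than in Op in WT (-1.57, Z score of -2.67) and in OE-*AhERF-VII* (-1.74, Z score of -2.57). *SNRK2.5* was called higher in R than under WS in both genotypes (2.81 and 2.74). In WT, *MYC2*, a bHLH factor of jasmonate and ABA signalling, was called higher (1.38) and *NAC019* lower (-0.95, WS not above background) under WS than in Op, *LEA4-1* lower (-1.94) and *EM1* higher (0.68) in R than under WS, and *ABA3* higher (1.39) and *RCI2B* lower (-1.04) under SS than in Op. In OE-*AhERF-VII*, the receptor gene *PYL12* was called higher from Op to WS (0.45) and lower from WS to R (-0.41), and *BGLU18* higher from Op to WS (1.18) at levels not above background. In OE-*AhDof-AI*, *RCI2A* (0.87), *COR413IM1* (0.48) and *NAC019* (-0.62) were called from Op to SS, all at levels not above background.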

How the data were processed

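Raw files as deposited by the authors hold, for each of 30000 spots, the mean intensity, its local background and a net intensity in both channels. The deposited files of normalized values and the series table gave no result here: their log2 values are the authors' own comparisons, and the normalized files recorded for WS and R are exchanged in the record only. Their column names and those of the raw files name the same states, and the WT values of the one recorded for WS equal the raw net intensities of R within 1 unit for 94.7% of transcripts (0.266% for WS), with 94.6% and 0.277% the other way round. The net intensity columns, in which the authors rescaled Cy5, served as an alternative. The labels and the study's methods differ in plant age, days of WS and the salt solution. The labels were followed, and grouping came from the sample titles.

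In limma 3.58.1 (R 4.3.3), mean intensities were background-corrected by normexp with an offset of 50, ratios were normalized by loess within arrays without weight on control spots, and levels were scaled between arrays (Aquantile). Spots were averaged per transcript identifier and then per locus, from 29234 gene spots to 26017 loci. The Z score took the difference from the mean over the 100 loci nearest in brightness and the locus itself, divided by their SD. Python 3.11.15, NumPy 2.4.6, pandas 2.3.3 and matplotlib 3.10.9 served for later steps. No coordinates or sequences are given, because no genome was used; 25818 loci are in the TAIR10.1 table that gave the neighbours.

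The 31 genes and all lists were chosen with earlier results of these data known. All 31 are named; of the wider lists, up to 3 called loci per comparison with the largest Z score are named. The Z score and both limma fits were tested on simulated data with known changes, larger than the ratios reported here. Alternatives were other background corrections, normalizations, filters and windows, and leaving out arrays.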

Additional observations from a re-analysis of the deposited data

Results flagged for a closer look

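No state of a line had more than 1 array, so no single array could be set against others of its group. Of the 31 genes, 2 had ratios to WT on opposite sides of 0 in the lines on every array (6.45%), as did 5.85% of all loci. *RAB18*, a dehydrin gene, lay between 0.08 and 0.27 on the 3 OE-*AhERF-VII* arrays and between -0.21 and -0.14 on the 2 OE-*AhDof-AI* arrays. The difference of the means, OE-*AhERF-VII* minus OE-*AhDof-AI*, was 0.36 ± 0.13 (limma, unadjusted p = 0.0193, adjusted p = 0.329). *RD22* lay between -0.14 and -0.03 in OE-*AhERF-VII* and between 0.25 and 0.32 in OE-*AhDof-AI*, a difference of -0.38 ± 0.13 (limma, unadjusted p = 0.0125, adjusted p = 0.298). Neither difference passed the adjusted threshold.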

How the results depend on the processing

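No paired analysis was possible because each group has 1 array and the labels number no replicates; WT and OE plants of an array are already compared within it, as its ratio. Over all alternatives, 147 recomputed medians and counts of the 31 genes stayed close to those reported and 42 moved. Of the recomputed values of single genes, 161 kept direction and side of the threshold, 51 lost the call and 4 turned sign. Centring arrays on their median, with no loess, moved the median log2 ratio of the 31 genes to 0.17 (OE-*AhERF-VII*, Op), 0.21 (OE-*AhDof-AI*, Op), 0.21 (SS), 0.15 (mean of OE-*AhERF-VII*) and 0.23 (mean of OE-*AhDof-AI*), passed 21 and 18 genes, and turned *DREB2A* to 0.22 in OE-*AhERF-VII* and *EM6* to -0.28 in OE-*AhDof-AI*. It also made 50.5% of all loci that passed in OE-*AhDof-AI* higher ones, against 38.1%. For differences between states it gave medians of 0.41 and 0.38 in WT (WS and SS against Op), 0.45 in OE-*AhERF-VII* and 0.55 in OE-*AhDof-AI*, with 0 genes called in WS against Op in WT and 3 in SS against Op in OE-*AhDof-AI*. Print-tip loess gave medians of 0.020 in Op of OE-*AhERF-VII* and -0.040 in Op of OE-*AhDof-AI*, passed 3 genes in each line, and turned *KIN1* to 0.18 in OE-*AhDof-AI*. The authors' net intensities gave medians of -0.0064 in Op, 0.027 under SS and 0.015 in the mean of OE-*AhDof-AI*, passed 2 genes in each line, and turned *KIN1* to 0.29. In these intensities and with print-tip loess, *COR47* lost its calls in Op and under WS of OE-*AhERF-VII*. Plain background subtraction gave a median of 0.038 in Op of OE-*AhDof-AI*, 2 called genes under SS, and for WS against Op 0 in WT and 1 in OE-*AhERF-VII*. Without background correction 0 genes were called in WS against Op in WT and 1 in R against WS in OE-*AhERF-VII*, and quantile normalization called 1 in R against WS in WT. Without loci below the 25th percentile of brightness, medians were 0.037 in Op and 0.028 under SS of OE-*AhDof-AI*, 3 genes passed in that line, and 1 was called in WS against Op in OE-*AhERF-VII*. Over 50 in place of 100 loci, the Z score called 1 gene in R of OE-*AhERF-VII* and 1 in Op of OE-*AhDof-AI*. Leaving out 1 array at a time, between 1 (without WS) and 6 genes passed in OE-*AhERF-VII*, and between 0 (without its Op array) and 9 (without the Op array of OE-*AhERF-VII*) in OE-*AhDof-AI*, where the median ran from -0.00074 to 0.017 and 1 gene passed without the SS array. Leaving out either WT Op array, WS against Op had medians from 0.035 to 0.22 and 0 to 1 called genes. The counts of genes called by Z score under these alternatives, and the values of single called ratios and differences, were added after seeing the data. The causes were not tested, and genes not above background are limited by signal.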
